A study of Mus musculus with 12 samples.

Results

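Mouse embryonic stem cells that lacked the helicases DHX36 and FANCJ were compared with cells that lacked DHX36 alone. By label the groups differ in FANCJ, in cells where DHX36 was already missing. The 3 double knockout libraries and the 3 DHX36 knockout libraries were chosen by their titles, and they are 6 of the 12 bulk RNA libraries of the study. The other 6 came from wild-type cells and from a FANCJ knockout, which gave FANCJ loss with DHX36 present. All cells were of the IB10 line from 129/Ola mice, kept untreated on gelatin in medium conditioned by Buffalo rat liver cells with serum and leukaemia inhibitory factor. The labels give the genotypes as WT, DHX36 KO, FANCJ KO and DHX36/FANCJ KO. They do not give which part of a gene was deleted, whether a genotype was 1 clone, or whether its 3 libraries were separate cultures. A difference between genotypes may therefore be one between clones, and p-values then measure only how far these libraries scatter, which may be technical scatter.

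FANCJ is the product of the Brip1 gene, a DNA helicase that travels along single-stranded DNA, binds the breast cancer protein BRCA1 and takes part in repairing DNA crosslinks. It also resolves G-quadruplexes, folds held together by stacked squares of guanines, ahead of the replication fork. DHX36 opens the same kind of fold, most of all in RNA. Embryonic stem cells in serum hold a mixture of pluripotent states, and their imprinted genes, which are read from the copy of 1 parent, can lose their marks in culture.

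The 3 DHX36 knockout libraries held 8736633, 6223087 and 10919405 counts, and the 3 double knockout libraries 14721931, 12434083 and 10915924. Libraries of 1 genotype differed by more than counting noise, with pairwise chi-square values over genes that were 3.87 to 11.3 times their degrees of freedom in the 4 genotypes, so no pair was merged as 1 library deposited more than once. Scatter of library preparation alone can also exceed counting noise. Mitochondrial RNA took 11% to 12.3% of counts in the DHX36 knockout and 11.9% to 13.2% in the double knockout. The 8 embryonic stem cell markers examined, among them Pou5f1, Sox2 and Nanog, summed to 4012 to 4359 CPM (each count divided by its library's normalized size) in the DHX36 knockout and 5049 to 5057 in the double knockout. Of 5 blood markers, 4 were below 1 CPM on average, with Tyrobp at 0 in all 6 libraries, and Spi1 reached 2.67 CPM. The fibroblast markers Dcn, Lum and Postn were below 1 CPM on average, but other fibroblast markers were present. Col1a1 stood at 37.9 to 45.8 CPM in the DHX36 knockout and 11.2 to 12.7 CPM in the double knockout. Thy1 stood at 13.5 to 16.45 CPM and 11.8 to 13.0 CPM.

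The targeted transcript was low in the double knockout. Brip1 (ENSMUSG00000034329, GRCm38 chromosome 11, 86058138 to 86201193, minus strand) stood at 6.45, 7.42 and 6.93 CPM in the DHX36 knockout and at 0.744, 0.319 and 0.178 CPM in the double knockout. All double knockout libraries lay below all DHX36 knockout libraries, and the log2 fold change was -3.94 (SE 0.34, adjusted p = 4.7e-08). Here and below the test is edgeR's quasi-likelihood test with Benjamini-Hochberg adjustment over 12765 genes, and a gene is said to have risen, fallen or changed when its adjusted p was under 0.05. Brip1os, a noncoding RNA that starts beside Brip1 on the other strand, fell by 2.85 on the log2 scale (SE 0.28). The sources used here do not give whether counting used strand. Dhx36, missing by label in both groups, had a residual 10.9, 8.84 and 11.6 CPM in the DHX36 knockout and 12.2, 15.1 and 14.5 CPM in the double knockout. Its difference of 0.39 (SE 0.13, adjusted p = 0.046) was not called by DESeq2 (adjusted p = 0.0586), and the call was lost without DHX36 knockout library 1 (adjusted p = 0.0832) or 2 (0.175) and without double knockout library 2 (0.161) or 3 (0.103).

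The double knockout differed from the DHX36 knockout in a large share of the transcriptome. Of the 12765 genes tested, 1057 rose (8.28%) and 1455 fell (11.4%), together 19.7%, and 224 rose (1.75%) and 319 fell (2.50%) at least 2-fold. Among the 5700 genes of at least 20 CPM, 582 rose (10.2%) and 744 fell (13.1%). Without a correction for multiple tests, 4090 genes passed a p under 0.05. The 3 libraries of one group lay all above or all below those of the other for 4706 genes (36.9%). H19, an imprinted RNA, the tested X-linked Xlr genes, 13 of 22 germline genes and 11 of 33 naive pluripotency genes rose in the double knockout. Among the lists, 22 of 30 actin-system genes, 9 of 14 fibroblast markers, 13 of 25 keratin and junction genes, 13 of 18 Wnt target genes and 15 of 29 immediate early genes fell. Counts of list members are of those that passed the expression filter, and a gene that passed it only through the group where it is high had to differ, so the counts and medians of lists with low genes are descriptions. The lists with 0 rises were the actin, fibroblast, keratin, Wnt, immediate early, mesendoderm and neuroectoderm lists. DESeq2 called 0 rises in them as well, and 1 mesendoderm member and 0 others rose at an unadjusted p under 0.05.

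**Figure D1:**
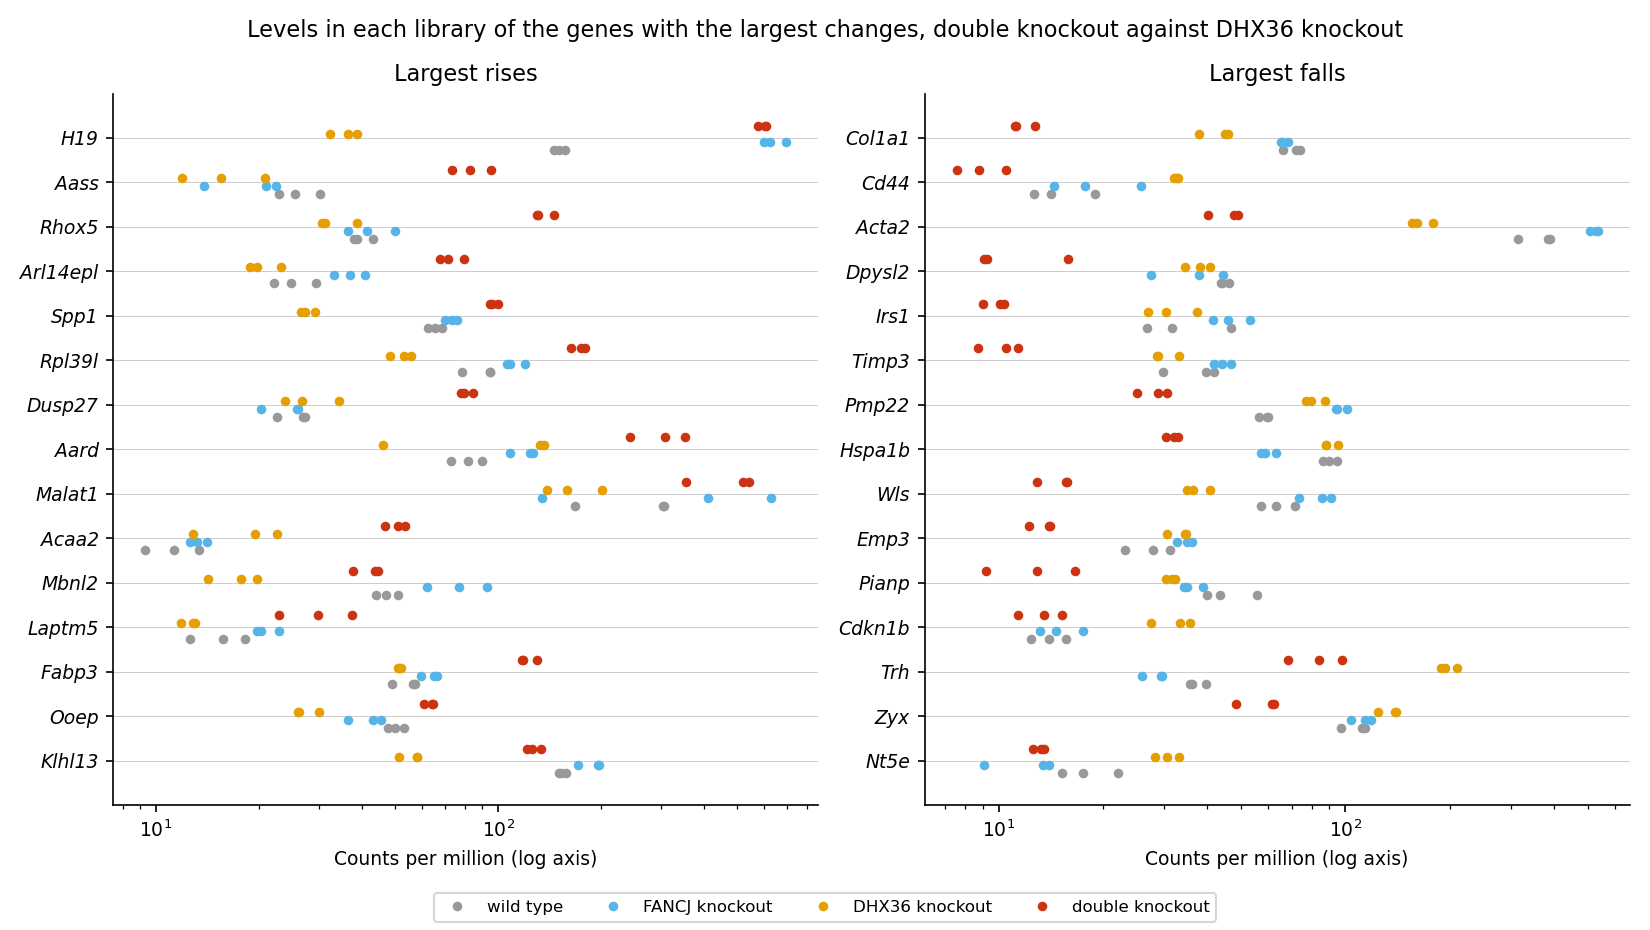
Level of each of the 15 largest rises (left) and 15 largest falls (right) in CPM on a log axis, 1 point per library, coloured by genotype (3 libraries each). The double knockout and DHX36 knockout points do not overlap for any of these genes, which the rule for these genes required. H19 runs from 32.2 to 607 CPM in these groups.

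The falls were not spread evenly over the genome. Chromosome 6 carried 309 of the 1455 falls (21.2%) although it held 4.59% of the genes tested, and 52.7% of its 586 tested genes fell while 18 rose. Over its 357 genes of at least 10 CPM the median log2 fold change was -0.47, and 328 of them were below 0. Against the wild-type mean, the median of these genes was 0.44, 0.45 and 0.44 in the 3 DHX36 knockout libraries and 0.03, 0.02 and -0.01 in the 3 double knockout libraries. The FANCJ knockout libraries were at -0.04, -0.03 and -0.05. On chromosome 6 the DHX36 knockout libraries were therefore the ones that stood apart, and the double knockout lay close to wild type.

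Windows of 30 neighbouring genes placed the offset along the chromosome. From 83349147 to 149335663 on GRCm38 chromosome 6, the 6 windows had medians of -0.48 to -0.66, and in the window from 87913935 to 97149182 all 30 genes were below 0 and 27 had fallen. The 3 windows nearest the start of the numbering, from 3498382 to 51483704, had medians of -0.28 to -0.30. Outside chromosome 6 a median of at least 0.25 in size was found in 4 of 236 windows. The largest of these was the last window of chromosome 17 (78752898 to 94750019), with a median of -0.44, where 34 of 36 genes were below 0 and 19 had fallen, and a median of -0.36 for the double knockout against wild type. In a window of chromosome 10 (58255497 to 62946498), 11 of 30 genes fell and 1 rose (median -0.28). In the last window of chromosome 18, 19 of 49 genes rose (median 0.26). A window of chromosome 5 (114380607 to 117116113) was just under that size, at -0.249, and 14 of its 30 genes fell and 0 rose. There the DHX36 knockout stood at a median of 0.48 against wild type, and the double knockout at 0.07.

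Chromosome 8 showed a smaller offset that belonged to the double knockout. There 133 of 700 tested genes fell (19%) and 21 rose, with a median of -0.15. The 3 double knockout libraries stood at -0.21, -0.19 and -0.18 against the wild-type mean, and the DHX36 knockout libraries at -0.03, -0.04 and -0.03. The other 18 chromosomes had medians between -0.07 and 0.09. DNA copy number was not analysed here, and its part in the offsets of chromosomes 5, 6, 8, 10, 17 and 18 was not tested. Genes of chromosome 6 are named as such below, beside the median of their neighbours where that matters. Outside chromosome 6, 1039 of 12179 genes rose (8.53%) and 1146 fell (9.41%).

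**Figure D2:**
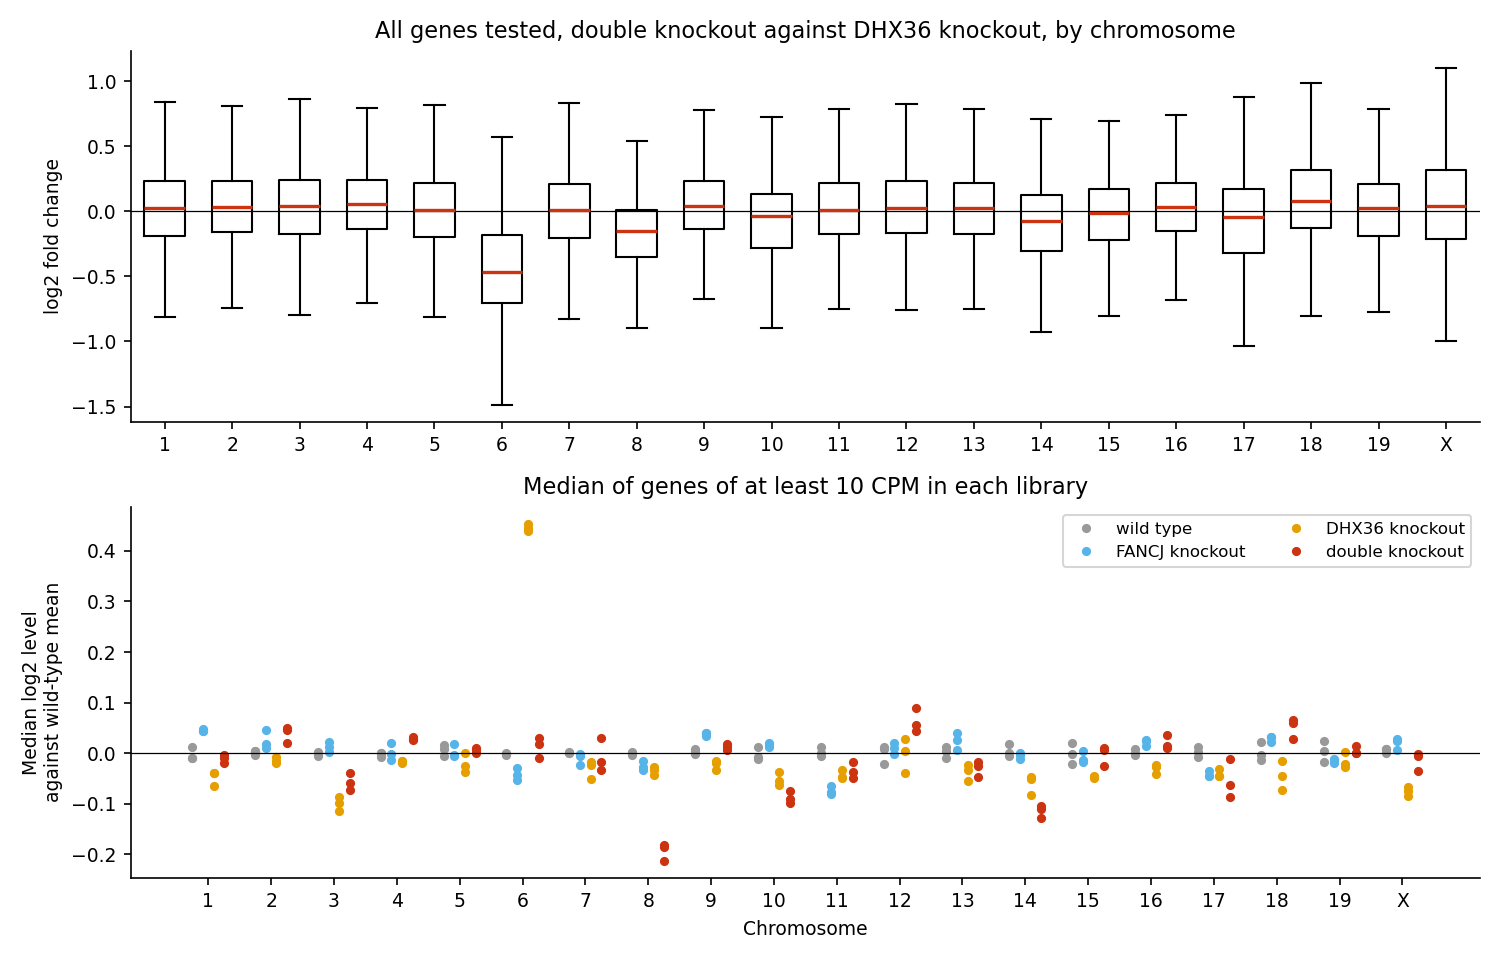
Top, log2 fold change of the double knockout against the DHX36 knockout for all genes tested, by chromosome (box, quartiles; line, median; whiskers, 1.5 times the interquartile range; outliers not drawn). Bottom, median log2 level of genes of at least 10 CPM in each of the 12 libraries against the wild-type mean; on chromosome 6 only the 3 DHX36 knockout points stand far from 0, and on chromosome 8 only the 3 double knockout points do.

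**Figure D3:**
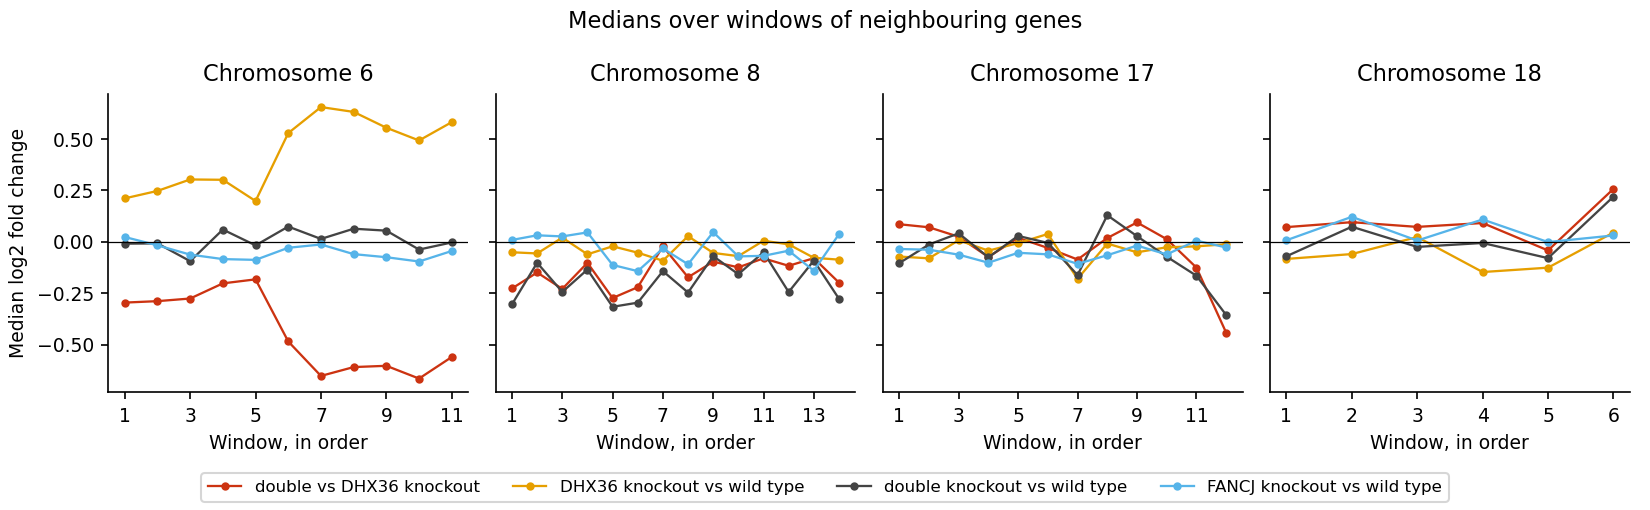
Median log2 fold change over successive windows of about 30 genes along chromosomes 6, 8, 17 and 18 for 4 comparisons, in chromosome order. On chromosome 6 the red and orange lines mirror each other and share the DHX36 knockout libraries; the last window of chromosome 17 falls to -0.44 in the double knockout against the DHX36 knockout.

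H19 had the largest rise among the genes of at least 20 CPM. This noncoding RNA is transcribed from the maternal copy of the H19 and Igf2 locus and restrains growth. Its level was 38.6, 36.5 and 32.2 CPM in the DHX36 knockout and 574, 602 and 607 CPM in the double knockout. The groups were far apart, and the difference was 16.7-fold (log2 4.06, SE 0.10, adjusted p = 6.2e-18). The double knockout level was near that of the FANCJ knockout, 639 CPM on average, and above the 151 CPM of wild type. The maternally expressed RNAs of the Dlk1 and Dio3 locus on chromosome 12 rose as well. Meg3 went from 52.3, 46.7 and 57.5 CPM to 111, 103 and 100 CPM (log2 1.00, SE 0.11, adjusted p = 1.3e-06). Rian and Mirg, which may share reads with it because the 3 RNAs lie in tandem, rose by 0.93 (SE 0.20) and 0.92 (SE 0.15). Unlike H19, Meg3 rose from a level below wild type to one still below it. The wild-type libraries, of 4553046, 5792862 and 4284785 counts in total, held 926, 1015 and 799 Meg3 counts. The larger double knockout libraries held 1636, 1296 and 1123.

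Of 25 maternally expressed imprinted genes with a count row, 17 passed the expression filter, and 5 of those rose and 2 fell, with a median of 0.12 beside -0.00 over all genes tested. Osbpl5, a lipid transfer protein gene, fell by 1.06 on the log2 scale (SE 0.24, adjusted p = 0.0030). Among the paternally expressed genes, 4 rose and 7 fell of 26 tested (median -0.10), 2 of the falls on chromosome 6. Plagl1, a zinc finger growth regulator, rose from 17.6, 19.6 and 17.5 CPM to 35.8, 41.1 and 36.0 CPM (log2 1.05, SE 0.14, adjusted p = 1.1e-05). Dlk1, which encodes a membrane protein related to Notch ligands and lies in the locus of Meg3, fell from 6.78, 6.79 and 6.84 CPM to 3.99, 3.99 and 3.65 CPM (-0.81, SE 0.18, adjusted p = 0.0032). Nnat, the neuronatin gene, fell by 0.80 (SE 0.13). Magel2 fell by 1.17 (SE 0.41, adjusted p = 0.048), and this call was lost when any library but double knockout library 1 was left out (adjusted p 0.084 to 0.199).

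The X-linked Xlr genes, a family related to the synaptonemal complex protein SYCP3, rose together from low levels. Of its 9 members, 8 passed the expression filter, and these 8 rose, with DESeq2 too, with a median log2 fold change of 3.25. Several were near 0 in the DHX36 knockout and passed the filter through the groups where they were higher, so this count and median are partly set by the filter: Xlr5c had 1, 0 and 5 counts against 80, 48 and 46, and Xlr4c 4, 3 and 1 against 54, 29 and 41. The family was grouped after its values were seen. Xlr3a went from 7.67, 4.26 and 5.27 CPM to 32.7, 32.1 and 30.5 CPM (2.44, SE 0.16, adjusted p = 5.3e-10). Xlr5a went from 1.00, 1.26 and 1.20 CPM to 10.1, 21 and 25.5 CPM (4.01, SE 0.40, adjusted p = 3.1e-07). No double knockout library overlapped a DHX36 knockout library in either gene. Xlr members are near-identical copies, so the share of each in these counts is uncertain.

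Genes of the germline list had more rises than falls. Of 27 genes in the list 22 passed the filter, 13 rose and 0 fell, and the median was 0.77. Most were low: 3 of the 22 reached 20 CPM, and of these 2 rose, with a median of 0.42. A low member that passed the filter only through the double knockout had to rise, so the count and median may be partly set by the filter. DESeq2 also called 13 rises and 0 falls, and 1 member fell at an unadjusted p under 0.05. Of the 13, 3 lie on chromosome 6, against the direction of that chromosome. Rhox5, an X-linked homeobox gene of reproductive tissues, went from 38.6, 30.6 and 31.2 CPM to 130, 130 and 146 CPM (log2 2.01, SE 0.11, adjusted p = 7.2e-11). Dazl, which encodes an RNA-binding protein of germ cells, went from 9.56, 13.3 and 11 CPM to 27.3, 29.3 and 22.7 CPM (1.25, SE 0.14, adjusted p = 1.5e-06). Hormad1, a gene of the meiotic chromosome axis, rose by 1.41 (SE 0.22) and Rhox6 by 1.25 (SE 0.16). In these genes the lowest double knockout library was above the highest DHX36 knockout library. Rhox genes occur in similar copies, and 4 of 34 in the table were tested, of which 2 rose; Rhox9 (0.71, adjusted p = 0.062) and Rhox13 (0.42, adjusted p = 0.066) did not pass. The Rhox genes were grouped after their values were seen.

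Several metabolic and RNA genes completed the largest rises. Aass, whose product starts the breakdown of lysine, rose from 11.9, 20.8 and 15.4 CPM to 82.7, 95.2 and 73.5 CPM (log2 2.41, SE 0.17, adjusted p = 2.2e-09). It lies on chromosome 6, where its 50 neighbours had a median of -0.30. Spp1, which encodes the secreted phosphoprotein osteopontin, rose from 26.6, 27.3 and 29.1 CPM to 100.2, 96.0 and 94.4 CPM (1.81, SE 0.09, adjusted p = 1.2e-11). The ribosomal protein paralog Rpl39l rose by 1.72 (SE 0.09), the mitochondrial thiolase gene Acaa2 by 1.48 (SE 0.15), the fatty acid carrier Fabp3 by 1.24 (SE 0.09) and the oocyte gene Ooep by 1.20 (SE 0.10). The phosphatase-family gene Dusp27 rose by 1.53 (SE 0.12), the splicing regulator Mbnl2 by 1.26 (SE 0.14), the lysosomal membrane gene Laptm5 by 1.24 (SE 0.16) and the ubiquitin ligase adaptor Klhl13 by 1.19 (SE 0.09). Arl14epl (1.82, SE 0.12) and Aard (1.52, SE 0.23) were the remaining protein-coding genes among the 15 largest rises. The nuclear noncoding RNA Malat1 varied more between libraries, at 159, 139 and 201 CPM against 518, 543 and 354 CPM (1.5, SE 0.32, adjusted p = 0.0020). Predicted genes were not named; 6 would have been among these rises and 0 among the falls. Gm10800, a predicted gene of satellite-like sequence named here after its values were seen, went from 303, 119 and 119 CPM to 1080, 691 and 679 CPM (2.18, SE 0.51). Its copies make the counting uncertain.

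Naive pluripotency genes, which mark the state nearest the early epiblast, moved in both directions with more rises. Of 33 tested, 11 rose and 4 fell, and the median was 0.13. The transcription factor genes Tbx3 and Tfcp2l1 rose by 0.80 (SE 0.08, adjusted p = 5.4e-07) and 0.75 (SE 0.09). Myc fell by 0.67 (SE 0.12) and Dppa3, which protects methylation marks in the zygote, by 0.67 (SE 0.11). Dppa3 lies on chromosome 6 and its 50 neighbours had a median of -0.63, within 0.05 of its own change. Of 26 formative and primed genes, which mark the later epiblast, 4 rose and 12 fell (median -0.26). The kinase gene Pim2 fell by 1.04 (SE 0.11, adjusted p = 6.0e-07), the Wnt effector Lef1 by 1.01 (SE 0.12) and the adhesion gene Cdh2 by 0.94 (SE 0.26). The Cdh2 call was lost without DHX36 knockout library 1 (adjusted p = 0.063) or double knockout library 2 (0.074).

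Actin-system genes were the list with the most falls. These genes form and bind actin filaments, and many are targets of serum response factor (SRF), a transcription factor that binds a short element called the CArG box. Of 30 members tested of 31, 22 fell and 0 rose, with a median of -0.65, and 21 of 29 had fallen outside chromosome 6. Acta2, the smooth-muscle actin gene (chromosome 19), stood at 179, 161 and 156 CPM in the DHX36 knockout and at 49.2, 40.3 and 47.8 CPM in the double knockout. The fall was 3.61-fold (log2 -1.85, SE 0.10, adjusted p = 5.1e-11), to a level below the 363 CPM of wild type and the 524 CPM of the FANCJ knockout. Zyx, the focal adhesion gene zyxin, fell from 139, 140 and 124 CPM to 48.4, 61.2 and 62.2 CPM (-1.23, SE 0.10, adjusted p = 2.6e-08); it lies on chromosome 6 beside neighbours with a median of -0.25. The calponin gene Cnn2 fell by 1.07 (SE 0.09, adjusted p = 6.8e-08) and the cardiac actin gene Actc1 by 1.13 (SE 0.24, adjusted p = 0.0016). Actin genes are close in sequence, and reads could be divided between them. Acta2 also marks fibroblasts, and in bulk samples fewer cells of a type and less RNA per cell cannot be told apart.

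RefSeq promoter windows of GRCm38.p6, 250 bases before to 50 after a start, were matched to 9986 of the 12765 genes tested, and to 25 of the 30 actin-system members. The CArG box searched for was CC, 6 letters that were each A or T, and GG, with every letter required to match. It was found on either strand for 9 of the 25 (36.0%) and for 1.54% of all genes with a window. Of the 18 members with a window that fell, 6 had one. Over all windows in the reference table, tested or not, the share was 1.63%. The box was also found for 3.55% of all genes that fell, 1.34% of those that rose and 1.29% of those not called. Within the list, Actg1, Srf and Myl9 had a box and were not called. The windows of Acta2 and Zyx, the largest falls of the list, held no exact match. Boxes that depart from this pattern were not searched for, in these or other genes. The list was drawn up to include SRF targets, so its share of boxes is no test of a link to the falls. A match describes the letters only, and binding was not measured. The 250 bases before the start are shown for the 4 largest falls among those 6 members, written 5′ to 3′ in the direction of the gene, because they carry the element the list is named for; capitals mark the CArG box.
Actc1 (chr2:114052876-114053125, minus strand): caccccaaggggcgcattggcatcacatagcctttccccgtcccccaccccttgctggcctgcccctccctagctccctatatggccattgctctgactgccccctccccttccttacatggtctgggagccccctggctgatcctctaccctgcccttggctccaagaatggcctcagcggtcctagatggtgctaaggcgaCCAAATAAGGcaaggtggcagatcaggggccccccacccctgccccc
Cnn2 (chr10:79988350-79988599, plus strand): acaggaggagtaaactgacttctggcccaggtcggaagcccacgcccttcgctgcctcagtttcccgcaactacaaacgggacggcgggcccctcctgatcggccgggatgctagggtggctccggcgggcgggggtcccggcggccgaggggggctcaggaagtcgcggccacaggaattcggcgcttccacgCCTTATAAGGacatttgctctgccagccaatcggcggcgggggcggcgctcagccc
Fhl2, upstream start (chr1:43196762-43197011, minus strand): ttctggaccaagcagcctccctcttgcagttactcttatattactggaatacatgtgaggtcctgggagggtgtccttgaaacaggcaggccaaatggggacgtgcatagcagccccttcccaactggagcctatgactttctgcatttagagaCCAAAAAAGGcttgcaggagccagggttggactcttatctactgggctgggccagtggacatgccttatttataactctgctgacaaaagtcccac
Fhl2, downstream start (chr1:43163962-43164211, minus strand): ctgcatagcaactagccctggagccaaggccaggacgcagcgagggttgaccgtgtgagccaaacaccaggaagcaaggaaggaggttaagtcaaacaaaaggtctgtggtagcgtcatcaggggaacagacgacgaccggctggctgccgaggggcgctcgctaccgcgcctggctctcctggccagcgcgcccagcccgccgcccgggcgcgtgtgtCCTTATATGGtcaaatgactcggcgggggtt
Acta1 (chr8:123894776-123895025, minus strand): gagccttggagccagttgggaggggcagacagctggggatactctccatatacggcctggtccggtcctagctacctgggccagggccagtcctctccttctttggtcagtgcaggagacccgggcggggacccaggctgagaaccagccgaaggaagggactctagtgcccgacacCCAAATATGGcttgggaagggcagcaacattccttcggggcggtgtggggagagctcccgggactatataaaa
The first base of the box lay 47 bases before the start in Actc1, 56 in Cnn2, 96 and 31 in the starts of Fhl2, and 73 in Acta1. Fhl2, a LIM-domain cofactor gene, fell by 0.96 (SE 0.17, adjusted p = 0.00030) and the skeletal actin gene Acta1, on chromosome 8, by 0.87 (SE 0.11, adjusted p = 9.2e-06). Both were chosen for display after their values were seen.

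Of 14 fibroblast markers that passed the filter, of 21 in the list, 9 fell and 0 rose, with a median of -1.0. Chromosome 6 held 1 of the falls. Col1a1, a fibrillar collagen gene, went from 37.9, 45.0 and 45.8 CPM to 11.2, 11.2 and 12.7 CPM (log2 -1.87, SE 0.11, adjusted p = 1.0e-10), and Col3a1 from 7.56, 10.1 and 8.78 CPM to 0.879, 2.23 and 2.67 CPM (-2.22, SE 0.27, adjusted p = 4.5e-06). The double knockout libraries were the lowest of the 6 in either gene. The 8 fibroblast markers used as a check on other cell types summed to 73.7 to 84.2 CPM in the DHX36 knockout and 30.9 to 35.5 CPM in the double knockout, with 88.0 to 93.2 CPM in wild type, and 3 of 5 tested fell. The part of such cells in the falls of the actin and matrix genes was not tested. Timp3, an inhibitor of matrix metalloproteinases, fell from 28.9, 28.6 and 33.2 CPM to 10.5, 11.4 and 8.73 CPM (-1.57, SE 0.14, adjusted p = 4.7e-08). Matrix and protease inhibitor genes as a list were mixed: of 31 tested, 3 rose, 9 fell and 19 did not pass (median -0.17, and 0.01 over the 21 of at least 20 CPM). Serpinb9, a serpin that blocks granzyme B, fell by 1.43 (SE 0.18), whereas Spp1 of the same list had risen.

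The other large falls had varied functions. Cd44, the hyaluronan receptor gene, went from 32.1, 33.0 and 32.7 CPM to 10.5, 8.77 and 7.57 CPM (log2 -1.85, SE 0.17, adjusted p = 1.2e-07). Irs1, which carries the insulin receptor's signal, went from 37.4, 27.0 and 30.3 CPM to 10.3, 9.01 and 10.1 CPM (-1.69, SE 0.17, adjusted p = 3.4e-07). In either gene the highest double knockout library was below the lowest DHX36 knockout library. Pmp22 fell by 1.53 (SE 0.09) and Emp3, of the same tetraspan family, by 1.32 (SE 0.12). The microtubule-binding gene Dpysl2 fell by 1.70 (SE 0.18), the inducible chaperone Hspa1b by 1.51 (SE 0.09) and the nucleotidase gene Nt5e by 1.23 (SE 0.14). Hspa1b has a near-identical neighbour, so its own share of the counts is uncertain. Pianp (-1.29), the cell cycle inhibitor Cdkn1b (-1.26) and the hormone precursor Trh (-1.25) lie on chromosome 6, and their 50 neighbours had medians of -0.65, -0.58 and -0.62. Trh stood at 194, 211 and 189 CPM and then at 84.2, 68.2 and 98.0 CPM, against 37.1 CPM in wild type.

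Simple epithelial keratin and junction genes fell in 13 of 25 cases and rose in 0, with a median of -0.42, and none of them lies on chromosome 6. The keratin partners Krt8 and Krt18, which form the filaments of simple epithelia, fell by 0.82 (SE 0.10, adjusted p = 3.6e-06) and 0.81 (SE 0.11, adjusted p = 1.1e-05). Lad1, of the same list, fell by 0.82 (SE 0.12) and the tight junction gene Ocln by 0.82 (SE 0.17).

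Most tested genes that respond to Wnt signals fell. Wnt ligands stabilise beta-catenin, which then acts with TCF and LEF factors on these targets, and in stem cell cultures the signal supports self-renewal and can start mesoderm genes. Of 18 tested members of 20, 13 fell and 0 rose, with a median of -0.86. Sp5, a direct target, went from 11.5, 10.7 and 8.41 CPM to 1.83, 1.75 and 1.87 CPM (log2 -2.47, SE 0.22, adjusted p = 6.5e-08). The mesoderm factor T went from 18.1, 24.6 and 21.5 CPM to 4.13, 3.83 and 4.99 CPM (-2.31, SE 0.17, adjusted p = 4.5e-09). Cdx2, a caudal homeobox gene, went from 6.56, 4.58 and 5.18 CPM to 0.609, 0.957 and 1.25 CPM (-2.56, SE 0.30, adjusted p = 2.7e-06). Groups did not overlap in any of these 3 genes, whose levels are low. The feedback inhibitor Nkd1, on chromosome 8, fell by 1.58 (SE 0.25). Upstream of the targets, Wls, which carries Wnt proteins to the cell surface, fell from 40.7, 35.0 and 36.4 CPM to 12.9, 15.6 and 15.8 CPM (-1.35, SE 0.12, adjusted p = 8.8e-08), and the ligand gene Wnt3 fell by 1.99 (SE 0.28). Among 12 tested mesendoderm markers of 18, 5 fell and 0 rose (median -0.32), T and Wnt3 being members of that list too. Chromosome 6 held 1 of these falls.

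Immediate early and ERK feedback genes, which growth factor signals switch on, fell in 15 of 29 cases and rose in 0 (median -0.43). The AP-1 genes Fosl1 and Fosl2 fell by 1.01 (SE 0.15, adjusted p = 3.7e-05) and 0.87 (SE 0.11), Ier3 by 0.90 (SE 0.15) and the feedback inhibitor Spry4 by 0.79 (SE 0.13). In the Nodal and BMP list, 2 rose and 7 fell of 30 (median 0.00). The BMP-responsive Id3 and Id1 fell by 0.85 (SE 0.08, adjusted p = 1.6e-07) and 0.64 (SE 0.08), the BMP antagonist Nog fell by 1.33 (SE 0.22), and the convertase gene Pcsk6 rose by 0.76 (SE 0.18).

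Genes of the 2-cell-like state, a rare state of these cultures that resembles the cleaving embryo, fell in 9 of 17 tested cases and rose in 3, with a median of -0.75. The list held 28 genes in the table, so 11 were too low to test. Usp17lc went from 26.2, 22.1 and 24.3 CPM to 10.5, 9.65 and 10.1 CPM (log2 -1.27, SE 0.13, adjusted p = 6.0e-07), above the 5.91 CPM of wild type. Pramel6, on the same list, rose by 2.23 (SE 0.43, adjusted p = 0.00068) and Pramel7 by 1.39 (SE 0.39). The Pramel7 call was lost without DHX36 knockout library 3 (adjusted p = 0.11) or double knockout library 2 (0.10), and DESeq2 did not make it (0.0579). AF067061 fell by 1.74 (SE 0.46), with an adjusted p of 0.069 without double knockout library 1. Usp17l and Pramel genes are multicopy families, so single members are uncertain.

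**Figure D4:**
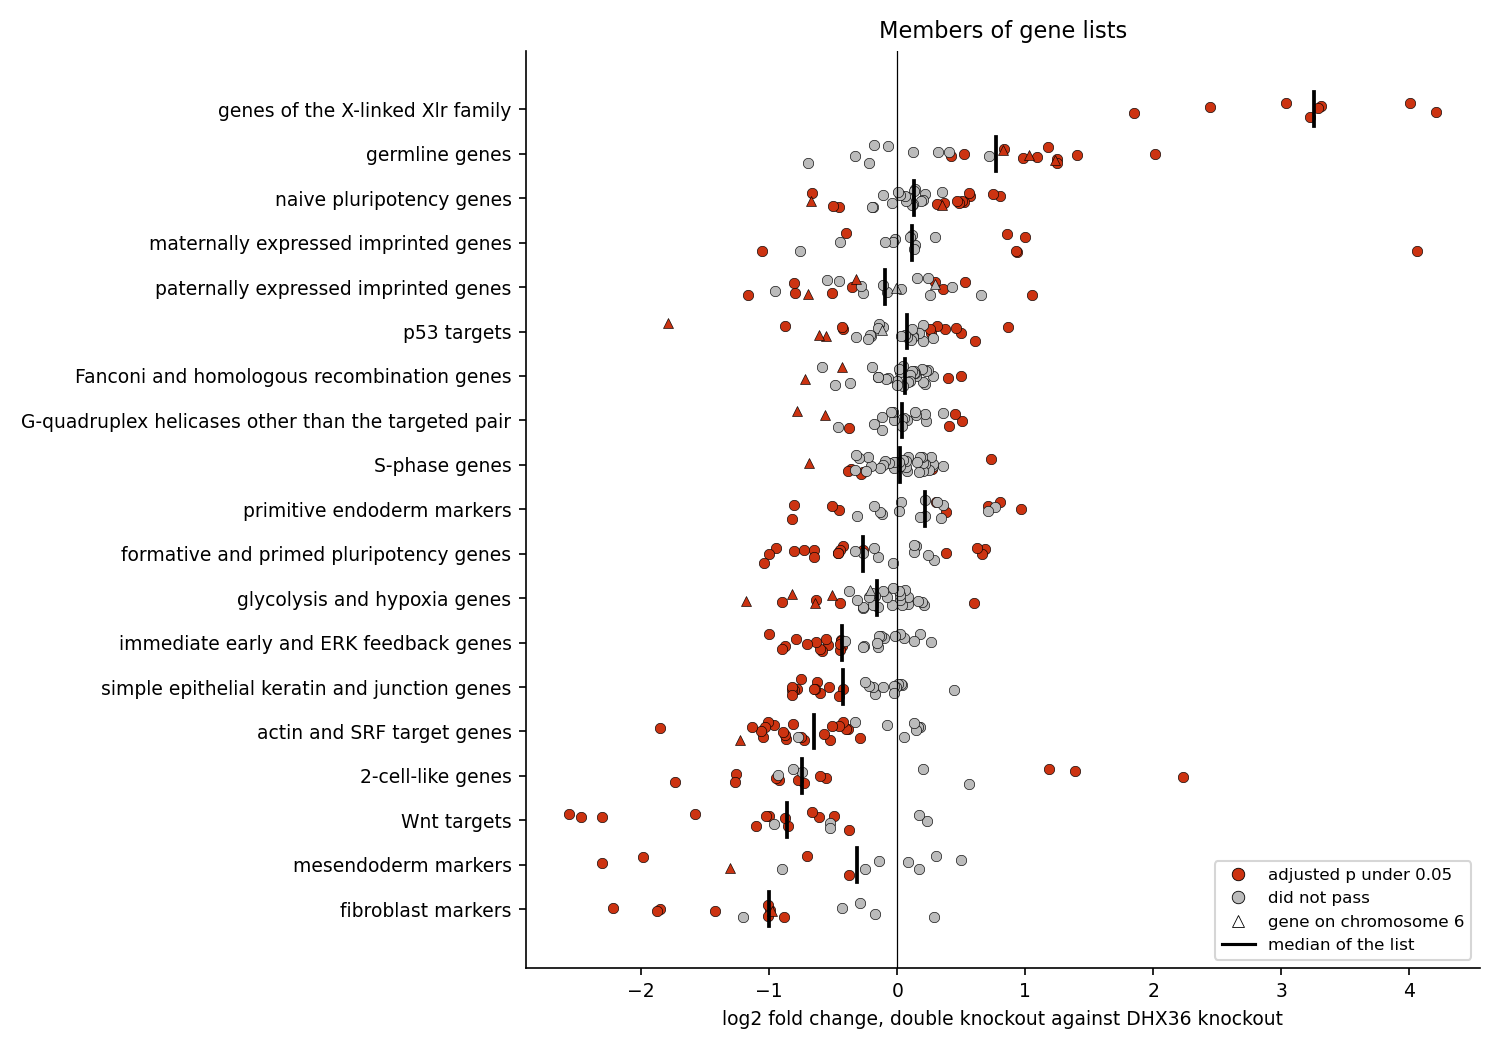
Log2 fold change of each tested member of 19 gene lists (points; triangles lie on chromosome 6; red passed an adjusted p of 0.05; vertical jitter only separates points), with the list's median as a black bar. Xlr members lie between 1.85 and 4.21, and no red point lies to the right of 0 in the actin, Wnt, immediate early, keratin, mesendoderm or fibroblast lists.

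DNA repair genes, the nearest to FANCJ's own function, changed little as a group. Of 32 tested Fanconi and homologous recombination genes, 2 rose and 2 fell, below the share of all genes tested, and the median was 0.06. The falls, Rad52 (-0.72, SE 0.15) and Fancd2 (-0.43, SE 0.12), lie on chromosome 6 among neighbours with a median of -0.61. The Fancd2 call was lost without double knockout library 1 (adjusted p = 0.080). Fanci, whose product pairs with that of Fancd2, rose by 0.50 (SE 0.12, adjusted p = 0.0046), and Rbbp8, a gene of DNA end resection, by 0.40 (SE 0.13, adjusted p = 0.039). The Rbbp8 call was lost without any 1 library other than double knockout library 3 (adjusted p 0.054 to 0.20). Among 11 genes of proteins that work with FANCJ, Blm rose (0.51, SE 0.12, adjusted p = 0.0040) and 0 fell, by DESeq2 too, while 1 fell at an unadjusted p under 0.05. The Blm call was lost when every library was thinned to equal depth (0.44, adjusted p = 0.0688).

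The list of other G-quadruplex helicases also holds proteins that are not helicases, such as Cnbp, Ncl and Hnrnpa1. Its members changed in both directions, 3 up and 3 down of 22 (median 0.04). Recql (-0.78, SE 0.12) and Cnbp (-0.56, SE 0.10) lie on chromosome 6, where their neighbours had medians of -0.55 and -0.62. The chromatin remodeller Atrx rose by 0.45 (SE 0.09). Of 24 R-loop factors, 3 rose and 2 fell; the largest were the mRNA export gene Mcm3ap (0.69, SE 0.12) and Rnaseh2a (-0.46, SE 0.11), a subunit of the enzyme that cuts RNA in RNA and DNA hybrids. The Rnaseh2a call was lost without double knockout library 1 (adjusted p = 0.051). Of 39 S-phase genes 2 rose and 5 fell (median 0.02). The polymerase alpha gene Pola1 rose by 0.73 (SE 0.12), and the replicative helicase gene Mcm2, on chromosome 6, fell by 0.69 (SE 0.10) among neighbours at -0.66. Of 26 G2 and mitosis genes 1 rose and 2 fell, 1 of the falls on chromosome 6. Targets of p53, the factor that answers DNA damage, rose in 8 and fell in 6 of 33 cases (median 0.07). Of these falls 3 lie on chromosome 6, and outside it 8 rose and 3 fell of 29 (median 0.12). Sesn1, a stress-induced sestrin, rose by 0.87 (SE 0.19), and the cyclin gene Ccnd2, on chromosome 6, fell by 1.79 (SE 0.17), further than its neighbours at -0.65.

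The remaining lists showed smaller or mixed changes. Of 32 glycolysis and hypoxia genes 1 rose and 7 fell (median -0.16), and 4 of the falls, Tpi1 (-1.18), Slc2a3 (-0.82) and Gapdh (-0.64) among them, lie on chromosome 6. Outside it 3 of 27 fell. Egln3, an oxygen sensor, fell by 0.90 (SE 0.12). Of 29 glutathione and transsulfuration genes 7 rose and 3 fell; Cth, which makes cysteine from cystathionine, rose by 0.81 (SE 0.10). Of 28 ATF4 targets 5 rose and 4 fell, led by Atf5 (0.97, SE 0.20), and 2 of the falls lie on chromosome 6. Of 19 interferon-stimulated genes 1 rose and 6 fell (median -0.07); H2-K1 and B2m, a class I heavy chain and its partner, fell by 0.65 (SE 0.09) and 0.65 (SE 0.12). Of 23 primitive endoderm markers 5 rose and 4 fell (median 0.22, and -0.05 over the 12 of at least 20 CPM). Of 18 trophoblast markers 5 rose and 7 fell (median -0.20), and of 9 neuroectoderm markers 3 fell and 0 rose. Srgn rose by 0.97 (SE 0.17), Gata3 by 1.35 (SE 0.21), and Gap43, a gene of growing axons, fell by 1.20 (SE 0.10). Dnmt3l, the cofactor of de novo DNA methylation, rose by 0.69 (SE 0.08, adjusted p = 1.8e-06). Of 23 genes of the DNA methylation machinery 2 rose and 3 fell, 1 of the falls on chromosome 6. Ribosomal protein genes rose in 4 and fell in 4 of 78 cases with a median of -0.01, and 1 of the falls, Rpl32, is on chromosome 6. Of 20 histone genes 2 rose and 3 fell, 2 of the falls on chromosome 6. Of 21 endoplasmic reticulum chaperones 2 rose and 1 fell, and that fall, Edem1 (-0.64), lies on chromosome 6 among neighbours at -0.59. Of 25 cholesterol genes 1 rose and 2 fell, and of 13 mitochondrial mRNAs 2 rose and 0 fell.

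For many genes the difference between cells without and with FANCJ was not the same with and without DHX36. With DHX36 present, the FANCJ knockout against wild type gave 264 changed genes (2.07%), 185 up (1.45%) and 79 down (0.619%), while 1910 passed an unadjusted p under 0.05. After every library was thinned to the same depth the counts were 1706 genes without DHX36 and 223 with it. The comparisons share no library, and 128 genes were called in both, which is 5.10% of the calls without DHX36 and 48.5% of those with it. Of these, 72 changed in the same direction and 56 in opposite directions. Across all 12765 genes the log2 fold changes had a Pearson r of 0.15 and a Spearman rho of 0.075; genes are not independent replicates, and the value is a description. The interaction, the effect without DHX36 minus that with it, passed for 1122 genes (8.79%), 348 positive (2.73%) and 774 negative (6.06%), of which 100 (0.783%) and 336 (2.63%) were at least 2-fold. Chromosome 6 held 154 of the 774 (19.9%).

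**Figure D5:**
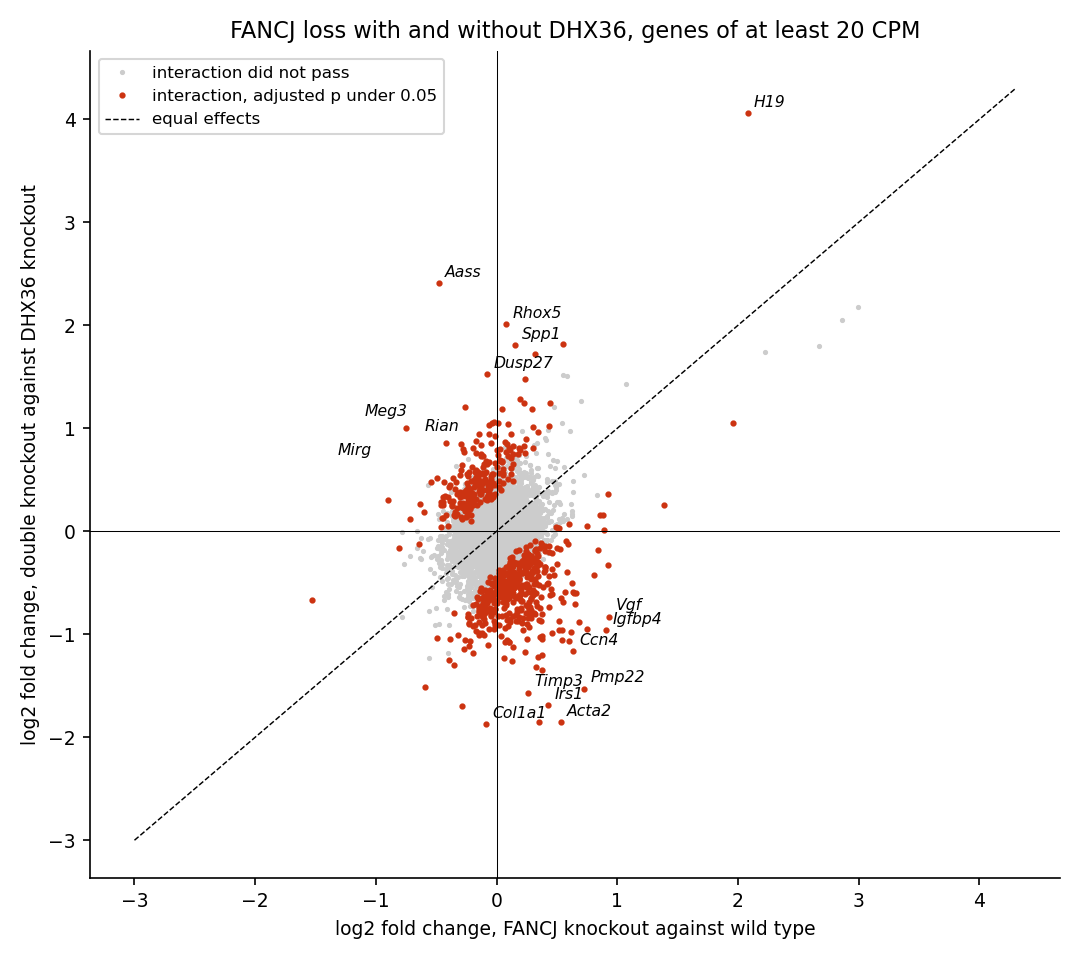
Log2 fold change of FANCJ loss without DHX36 (vertical) against that with DHX36 (horizontal) for each gene of at least 20 CPM; red points passed the interaction test at an adjusted p of 0.05 and the dashed line marks equal effects. H19 lies above the line at 2.08 and 4.06, while Acta2, Pmp22 and Irs1 lie right of 0 and below it.

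Some genes rose in both settings, by unequal amounts. H19 rose by 2.08 with DHX36 and by 4.06 without it, an interaction of 1.98 (SE 0.12, adjusted p = 9.7e-10). Plagl1 rose by 1.96 with DHX36 and by 1.05 without it, an interaction of -0.90 (adjusted p = 0.0068). T fell by 2.28 and by 2.31, with an interaction of -0.03 (SE 0.37, adjusted p = 0.99), and a p that misses the threshold does not show that the effects were equal. In the Xlr family 5 of the 8 tested genes had risen with DHX36 present (median 2.06), and the interaction passed for 2 of them.

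Other genes moved in opposite directions. Acta2 rose by 0.53 in the FANCJ knockout and fell by 1.85 without DHX36, an interaction of -2.38 (SE 0.14, adjusted p = 5.5e-10). Pmp22 (0.72 and -1.53), Igfbp4 (0.91 and -0.96), Ccn4 (0.63 and -1.16) and the neuropeptide precursor Vgf (0.93 and -0.83) shared that pattern, each passing the test in both comparisons. Meg3 (-0.75 and 1.00) and Mirg (-0.94 and 0.92) had the reverse one. With DHX36 present, 3 actin-system genes rose and 0 fell (median 0.17), 4 2-cell-like genes rose and 0 fell (median 0.66), and 8 p53 targets rose and 0 fell (median 0.25). By DESeq2 0 members of these lists fell, and at an unadjusted p under 0.05 2, 0 and 1 did. The interaction passed and was negative for 18 of 30 tested actin-system genes, 11 of 17 in the 2-cell-like list and 7 of 33 p53 targets. Over all genes tested the share was 6.06%. Zyx and Ccnd2, among the 18 and the 7, lie on chromosome 6. The p53 list did not reverse as a whole, since without DHX36 8 of its members rose and 6 fell. Btg2, Mdm2, Plk3 and Trp53inp1 rose in both settings, whereas Perp and Plk2 rose with DHX36 and fell without it. Naive pluripotency genes had 10 positive interactions. The FANCJ comparison with DHX36 present lost many calls when 1 library was left out, to between 110 and 198 genes.

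G-quadruplex motifs in promoters, the fold that the missing helicases act on, were looked for in the same windows. The motif searched was 4 runs of GGG with loops of 1 to 7 bases on either strand. It was found for 32.4% of the 9986 genes with a window, 31.7% of those that rose and 38.9% of those that fell. The mean GC content of these windows was 61.2%, 60.0% and 62.0%. Over the genes with a motif the median log2 fold change was -0.02, and over those without 0.00. With loops of up to 12 bases the shares were 48.0%, 47.8% and 56.1%. Outside chromosome 6 they were 32.6%, 31.6% and 42.1% with the shorter loops. These are descriptions of sequence, and G-quadruplex folding was not part of these measurements.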

How the data were processed

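The authors deposited 1 table of raw counts per gene for 12 libraries (4 genotypes, 3 each), made by a protocol like CEL-Seq2, which tags transcript 3′ ends, per the labels' protocols. BWA and the builds GRCm38 and hg38 are named in the submitters' processing notes without roles; the sources used here do not give whether a count is a read or a molecule. The 92 spike-in rows were dropped, and coordinates came from GENCODE M21. Genes were tested with edgeR 4.0.16 (R 4.3.3; quasi-likelihood, trimmed-mean normalisation, default expression filter, 12765 genes, all 12 libraries in 1 model with genotype as its term, two-sided, Benjamini-Hochberg). DESeq2 1.42.0, other scaling, no filter, equal depth and leaving out libraries were alternatives. The procedure was tested on simulated counts.

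The compared groups, the 35 gene lists and the tests were chosen with earlier results of these data known, so lists are described and not tested as sets; 2 lists (Xlr, Rhox) and the split by chromosome were added after values were seen. Named genes were the targeted pair, the 15 largest rises and falls among called genes of at least 20 CPM whose libraries did not overlap, up to 4 called members of each list by size, and the 8 largest interactions each way, without predicted genes. Genes named outside this rule are said to be, or illustrate a list count. Library totals of 6223087 to 14721931 in the compared groups limit the precision for low genes. CPM were computed from the counts with normalised totals, and log2 fold changes come from the fit.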

Additional observations from a re-analysis of the deposited data

Results flagged for a closer look

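For 16 genes named in the report, the difference between cells without and with FANCJ was not the same without DHX36 as with it. The test was edgeR's interaction test with adjustment over 12765 genes (3 libraries per genotype). The interaction, the log2 effect without DHX36 minus that with it, was positive for Aass (2.89), H19 (1.98), Rhox5 (1.93), Mirg (1.86), Meg3 (1.75), Spp1 (1.65), Rian (1.62) and Dusp27 (1.61). It was negative for Acta2 (-2.38), Pmp22 (-2.25), Irs1 (-2.12), Igfbp4 (-1.86), Timp3 (-1.83), Ccn4 (-1.80), Col1a1 (-1.79) and Vgf (-1.76). Aass lies on chromosome 6, where the DHX36 knockout libraries stood apart from the other genotypes. Groups of 3 libraries are too small for the check on outlying samples, so that check was not made.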

How the results depend on the processing

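The count of genes changed between the double knockout and the DHX36 knockout, 2512, lay between 1706 (equal depth) and 2772 (only these 2 groups fitted) under the alternatives first listed, and DESeq2 gave 2145. Leaving out 1 library gave 1789 to 2115. Without the genes of chromosomes 6 and 8, an alternative chosen after seeing the data, it was 1907. The interaction count, 1122, lay between 840 (equal depth) and 1319 (no filter), and between 880 and 1071 without 1 library. The 264 genes changed between the FANCJ knockout and wild type were less stable: 418 with no filter, 159 with only these 2 groups fitted, and 110 to 198 without 1 library. The lowest were without FANCJ knockout library 1 (110) or 3 (143) and without wild-type library 1 (130) or 2 (131). Of 168 results for named genes, 135 kept their call under every alternative run and 0 changed direction. The replicate number, used as a block, gave 2387, 233 and 1039 genes in the 3 comparisons. Same-numbered libraries of the compared groups did not deviate together (r of 0.026, -0.094 and -0.120), and 2 of 6 correlated best with their own number, so the numbers do not pair the samples; the block ended the calls of Dhx36, Rbbp8 and Ehmt2. The share of promoters with a G-quadruplex motif among genes that fell was 38.9%, 56.1% with longer loops and 42.1% outside chromosome 6; among genes that rose it was 31.7%, 47.8% and 31.6%. Depth limits the calls: at equal depth fewer genes passed in each comparison.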
